A study of Mus musculus with 30 samples.

Results

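Single fast muscle fibres that carried an MCU vector were compared with fibres that carried a control vector, both 14 days after the virus was injected. Of the 30 fibres of the series, 8 entered the comparison, 4 with the MCU vector and 4 with the control vector, chosen by their sample titles alone, and all 23341 genes that could be measured were tested. The muscle was the extensor digitorum longus (EDL), which is made mostly of fast fibres, and the animals were male CD1 mice, 8 weeks of age. In the MCU vector group an adeno-associated virus (AAV) carried MCU to overexpress it. In the control group the titles name a virus with a hairpin against luciferase (AAVshLuc), while other labels of the same fibres describe a virus without an insert, and the sources do not settle which was used. Fibres were freed with collagenase, and in injected muscles those that glowed with the marker protein ZsGreen were picked. Where they help to place a value, 4 fibres with a vector that silences MCU and 4 fibres of wild type muscle without a virus, all of day 14, are given beside the others. The labels name neither the promoter of the vectors nor the animals, so that p-values measure the spread between fibres, some of which may share an animal.

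MCU forms the pore of the uniporter, the channel of the inner mitochondrial membrane through which calcium enters the matrix when its cytosolic level rises. In muscle every contraction is started by calcium released from the sarcoplasmic reticulum next to the mitochondria, and calcium in the matrix stimulates dehydrogenases of oxidative metabolism. The uniporter is gated by MICU proteins, is inhibited by the paralogue MCUB and is held together by EMRE, which is encoded by Smdt1.

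The position of the arrays limits every result that follows. The MCU vector fibres were hybridised on one slide together with the wild type fibres, and the control vector fibres on another slide together with the silenced fibres, and the 2 slides belong to different scanning sessions. Slide and vector therefore cannot be told apart in the comparison of MCU vector with control vector. For this reason the difference from wild type fibres of the same slide is given beside it. Within the slides, however, the MCU vector and silenced fibres lay in array columns 1 and 2, and the wild type and control vector fibres in columns 3 and 4. Array column and vector therefore cannot be told apart in either comparison. The 2 comparisons share the MCU vector fibres, and neither is independent of the other. The 75th percentile of signal ranged from 102 to 129 in MCU vector fibres and from 106.5 to 127 in control fibres, and the probes well above background made up 52.2% to 54.8% in MCU vector fibres, against 50.6% to 56.5% in control fibres. Levels below are log2 of the signal over the array's 75th percentile, so that 0 is the level of that percentile and a difference of 1 is a 2-fold change. Across genes, fibres of the MCU vector group correlated with each other at 0.979 to 0.984, control fibres at 0.968 to 0.980, and fibres of different groups at 0.954 to 0.963. On the first principal component of all 30 arrays, which held 17.7% of the variance, MCU vector fibres lay between -32.4 and -17.9, close to wild type fibres at -44.4 to -27.7, while silenced fibres lay at 3.63 to 24.6 and control vector fibres at 36.0 to 47.8.

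Mcu itself was read by a single 60-base probe, printed here because the check of the vector rests on it. Its position on mouse build mm9 is chr10:58929203-58929262, minus strand.
Mcu probe: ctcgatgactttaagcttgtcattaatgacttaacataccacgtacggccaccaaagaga
The level of Mcu was 6.40, 5.88, 6.68 and 6.56 in the 4 MCU vector fibres, against 2.35, 2.66, 2.81 and 2.41 in the control vector fibres. The groups were far apart, with a log2 difference of 3.82 ± 0.38 (SE), or 14.1-fold (limma, adjusted p = 7.1e-07). Against wild type fibres of the same slide the difference was 3.90, whereas wild type and control vector fibres differed by -0.08 (adjusted p = 0.91). Per the labels, the fibres had been selected by quantitative PCR for a change of MCU, so that this difference is not independent of the selection. At day 7, with 3 MCU vector fibres, the same 2 vectors differed by 0.72 in Mcu. The change between days passed the test, as it did for 2.68% of all genes, with day and slide not separable.

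Of 12 genes of the uniporter complex and its partners, 2 rose and 2 fell (33.3% called). The rises include Mcu, the gene carried by the vector. Of all genes 18.1% were called, 10.4% higher and 7.75% lower. Micu2, a gatekeeper of the channel, had levels of 0.75, 1.00, 1.14 and 1.23 in MCU vector fibres, against 0.36, 0.40, 0.25 and 0.04 in control fibres, a difference of 0.77 ± 0.22 (adjusted p = 0.017) whose call was lost with median scaling and without fibre 4 of either group. Letm1, a mitochondrial inner membrane protein of ion exchange, was lower by -0.93, although another of its probes went the other way and the call was lost with all its probes averaged or without control fibre 3. Vdac1, the main channel of the outer membrane, was lower by -0.38 (adjusted p = 0.036), a call lost under 8 alternatives, namely another background correction, no filter, a fit of the 8 arrays alone, the replicate block and 4 single fibres left out. In Letm1 and Vdac1 the 2 groups overlapped. Neither Micu2, Letm1 nor Vdac1 passed the test against wild type fibres. Mcub, Smdt1, Micu3 and Mcur1 did not pass in the comparison of the vectors.

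**Figure D1:**
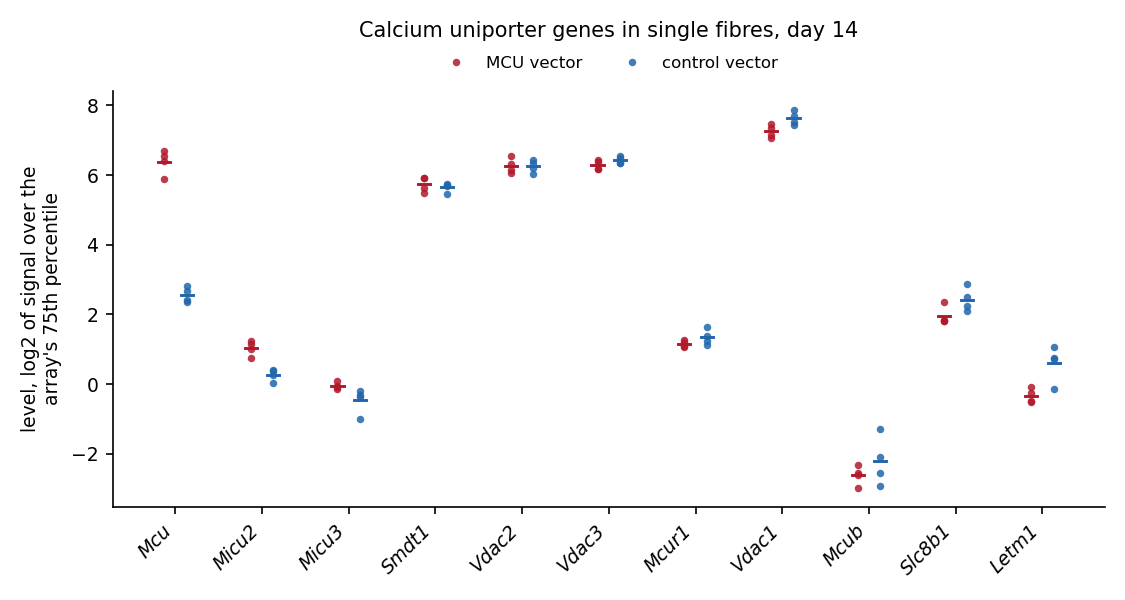
Level (log2 of signal over the array's 75th percentile) of 11 genes of the calcium uniporter and its partners in MCU vector fibres (red, left of each pair) and control vector fibres (blue, right), 4 fibres each, with the group mean as a bar. Mcu stands apart at 5.88 to 6.68 with the MCU vector and 2.35 to 2.81 with the control vector, while the other genes differ by less than 1.

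Over all genes, 4236 of 23341 passed the test between MCU vector and control vector fibres (18.1%, limma, adjusted p below 0.05), 2426 of them higher (10.4%) and 1810 lower (7.75%) with the MCU vector, and the median difference of all genes was 0.06. The split depends on the scaling: after scaling arrays by their median instead of the 75th percentile, 1518 genes were higher and 2234 lower. Against wild type fibres, on the same slide, 76 genes were higher (0.326%) and 22 lower (0.0943%) in MCU vector fibres (76 and 10 with median scaling). Wild type fibres in turn differed from control vector fibres, on the other slide, by 2447 higher genes (10.5%) and 1296 lower genes (5.55%), and median scaling turned this split to 1232 higher and 2120 lower, with a shift of the median of all genes from 0.06 to -0.10. The count against wild type is fragile, since it was 64, 59 and 48 without MCU vector fibre 2, 3 or 4, against 98 with all fibres.

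**Figure D2:**
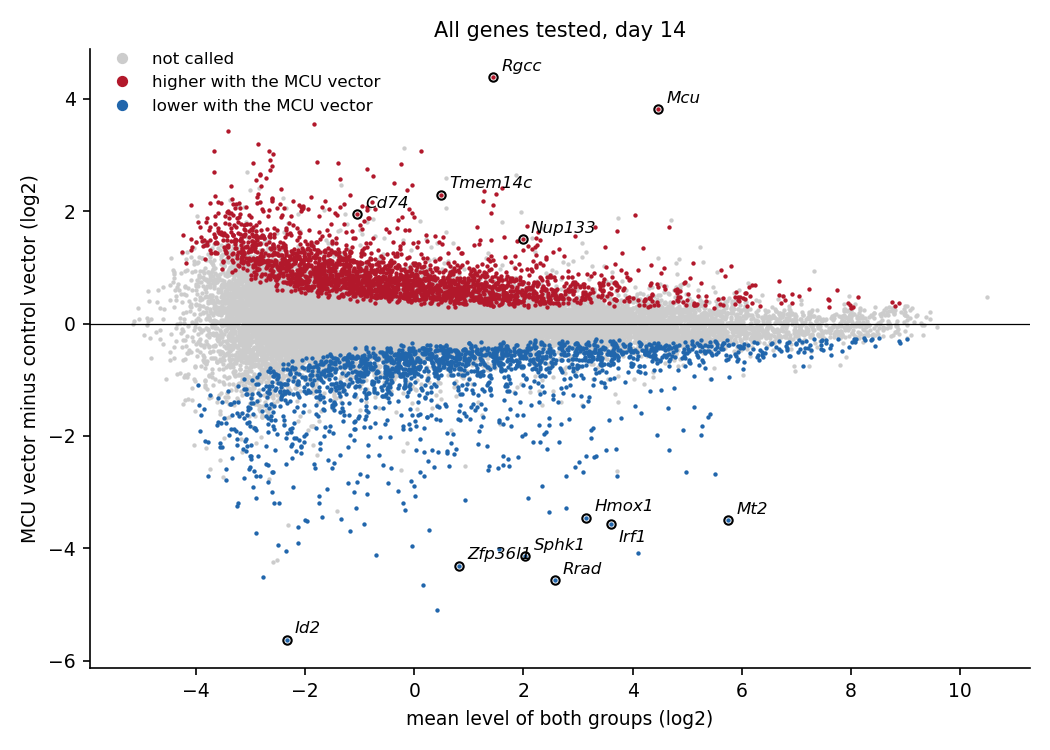
Each point is one of 23341 genes, with the mean level of both groups on the x axis and the difference of MCU vector minus control vector on the y axis, both log2. Genes called higher with the MCU vector are red, genes called lower are blue, and the falls of Rrad, Zfp36l1 and Sphk1 exceed 4 on the log2 scale, as does the rise of Rgcc.

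Among genes measured on all 8 arrays, 257 of the called genes rose and 315 fell at least 2-fold. The largest rise was that of Rgcc, a regulator of the cell cycle that responds to complement. Its level was 3.56, 3.55, 3.57 and 3.85 in MCU vector fibres, against 0.25, -0.36, -1.43 and -1.47 in control fibres. The difference was 4.38 ± 0.45 (adjusted p = 1.3e-06), and the difference from wild type was 1.51 (adjusted p = 0.15). Tmem14c, a mitochondrial inner membrane protein needed for haem synthesis in erythroid cells, was at 1.48 to 1.80 in MCU vector fibres and at -0.97 to 0.00 in control fibres, with a difference of 2.30 ± 0.19 (adjusted p = 8.2e-08). Wild type fibres, on the slide of the MCU vector fibres, were at 1.63. Silenced fibres, on the slide of the control fibres, were at -0.49, and the cause was not tested. Ube2c, a ubiquitin-conjugating enzyme of mitosis, rose by 2.85, Katnal2 by 2.47, Zxdb by 2.42, Serpinb6e by 2.18, Rasd1, a glucocorticoid-induced Ras relative, by 2.04, and Ddit4, an inhibitor of mTORC1, by 2.02. The call of Ddit4 was lost without any 1 of MCU vector fibres 1 to 3 or of control fibres 1, 3 and 4. None of these passed against wild type fibres, where the differences lay between -1.34 (Ddit4) and 1.51 (Rgcc).

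The largest fall among genes measured on all 8 arrays was that of Rrad, a small GTPase that restrains voltage-gated calcium channels. Its level was 0.33, -0.09, 1.10 and -0.17 in MCU vector fibres, against 6.54, 4.26, 4.22 and 4.38 in control fibres, with fibre 1 of the control group above the others. The difference was -4.56 ± 0.72 (adjusted p = 1.8e-04). Zfp36l1, which binds AU-rich elements and speeds the decay of mRNAs, was at -2.07 to -0.71 in MCU vector fibres, against 2.51 to 3.37 in control fibres (difference -4.31 ± 0.53). Sphk1, which makes sphingosine 1-phosphate, differed by -4.14, Osgin1, a target of NRF2, by -4.08, Mid1ip1, a regulator of lipid synthesis, by -4.02, and the interferon regulatory factor Irf1 by -3.56. Thbs4, a matrix protein, differed by -3.35, Ankrd2, a stretch-responsive muscle protein, by -3.29, Csrnp1 by -3.14 (a call lost without MCU vector fibre 1 or 3, or without control fibre 1 or 3) and Aqp4, the water channel of fast fibres, by -3.11 (-1.84 with all its probes averaged). In each of these 10 genes every MCU vector fibre lay below every control fibre. The 10 were taken from the 12 largest falls of this comparison, so that the separation follows largely from the choice. Mt2 and Hmox1, also among the 12, are given further below. Of all 23341 genes, 2583 were separated in this direction. The same-slide difference from wild type lay between -1.83 (Aqp4) and 1.05 (Osgin1), and none of the 10 passed there.

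Some of the changes could be given only as bounds, because the gene was well above background in all 4 fibres of one group and in none of the other. There were 105 such genes on the side of the MCU vector and 75 on the side of the control vector. A bound sets the mean of the bright group against the detection floor of the dim group's arrays, or against the dim signal itself where that was higher. Id2, an inhibitor of basic helix-loop-helix factors such as MyoD, was at least 12-fold lower with the MCU vector, with measured levels of -5.28 to -5.05 in MCU vector fibres, against -0.37 to 1.77 in control fibres. Ppp1r1c was at least 10.4-fold lower, Map3k8, a kinase of inflammatory signalling, at least 6.96-fold lower, the insulin receptor adaptor Grb14 at least 6.54-fold lower and Ripk1, a kinase of cell death signalling, at least 6.07-fold lower. On the other side the bounds were smaller. Ripor2 was at least 3.47-fold higher, Tgfbr3, a coreceptor of TGF-beta ligands, at least 3.26-fold and Tmem243 at least 3.12-fold higher with the MCU vector.

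Immediate-early genes are transcribed within minutes of a stimulus and encode mostly transcription factors of the FOS, JUN, EGR, KLF and ATF families. All 29 genes of this list had a mean below that of the control fibres, and 22 of the 29 were called lower, none higher, where 7.75% of all genes were called lower. The list's median was -1.87, against 0.06 for all genes. Maff, a small MAF protein, was at -4.45, -0.51, -2.36 and -1.19 in MCU vector fibres, against 2.79, 3.01, 3.10 and 2.99 in control fibres. The difference was -5.10 ± 1.00 (adjusted p = 0.0011), but Maff was not well above background in MCU vector fibre 1, and the difference was -4.68 with dim spots at the floor and -3.21 with another background correction. Junb was at 1.01, 3.17, 2.28 and 2.99 in MCU vector fibres, against 5.34, 5.26, 4.85 and 4.83 in control fibres (difference -2.71, adjusted p = 5.3e-04). Fos was at 2.03, 4.37, 3.20 and 4.20 in MCU vector fibres, against 5.42, 5.16, 5.54 and 5.58 in control fibres (difference -1.97, adjusted p = 0.019). The control fibres were close together in Maff and Fos, whereas the MCU vector fibres were spread, with fibre 1 lowest in all 3 genes. Egr1 (-1.60), Atf3 (-1.98), Jun (-1.48), Btg2 (-2.64), Gadd45b (-1.89) and Fosl1 (-3.90, well above background in 1 of 4 MCU vector fibres) were also lower, and Nr4a1 fell by 0.69. Atf3 and Nr4a1 each lost the call under 7 alternatives. The genes that did not pass were Egr3, Jund, Klf2, Ier5, Dusp1, Nr4a2 and Nr4a3.

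Between MCU vector and wild type fibres the same list had a median difference of 0.06 and no gene called, whereas wild type fibres lay below control vector fibres by a median of -1.93 with 21 genes called lower. Silenced fibres, on the slide of the control fibres, differed from these by a median of -0.31. Fibre 1 of the control group was the highest of its group in Fosl1, at 2.17, and in Egr1, at 6.71, where the other control fibres lay at 5.86 to 6.24. Without MCU vector fibre 1 the number of list members called lower was 13, with Fos, Atf3, Btg2 and Nr4a1 among those lost, and without any other fibre it was 17 to 21. Fibres were freed by enzymatic digestion before RNA was taken, in every group, and its part in these levels was not tested.

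**Figure D3:**
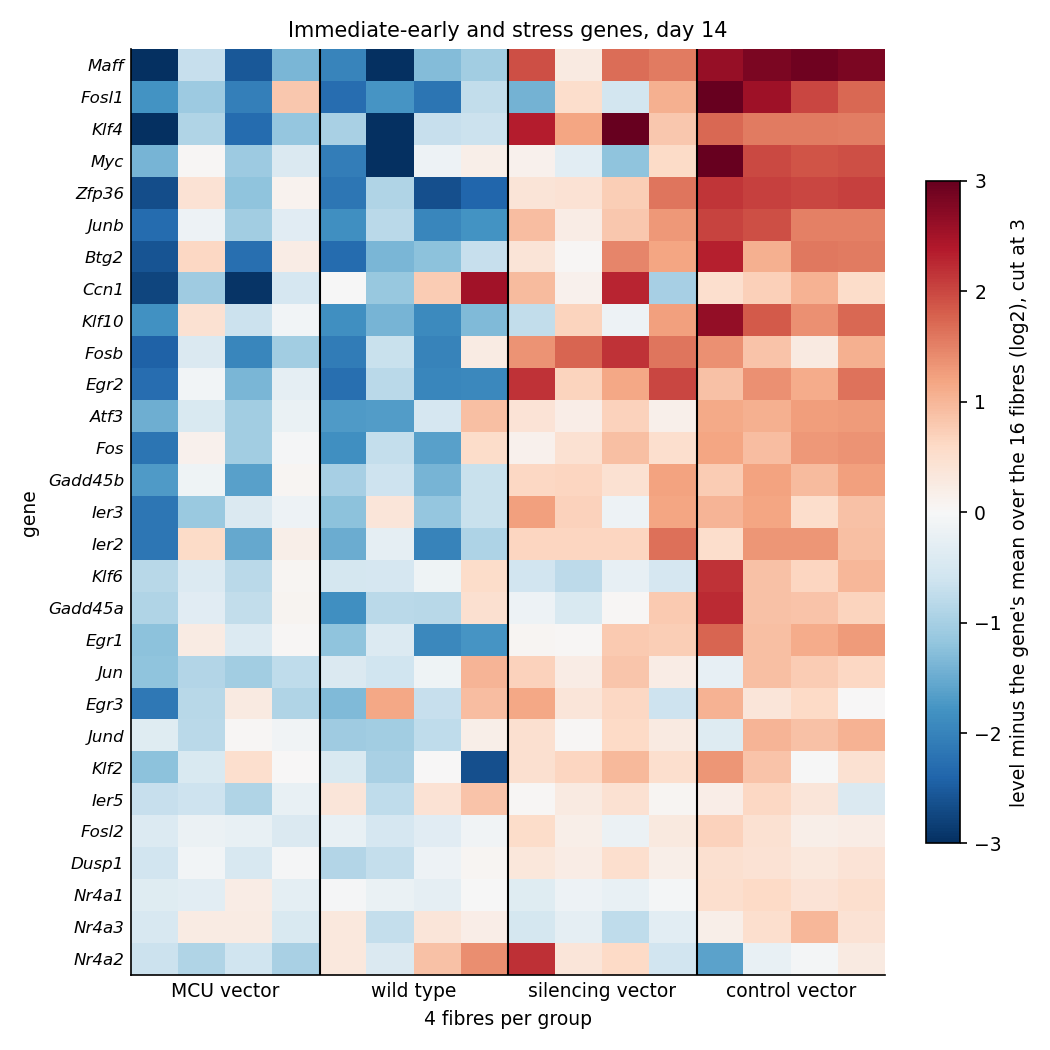
Each row is one of 29 immediate-early and stress genes and each column one fibre of day 14, in blocks of 4 for MCU vector, wild type, silencing vector and control vector. Colour gives the level minus the gene's mean over the 16 fibres (log2, red above and blue below, cut at 3), and the control vector block is red in nearly every row while the MCU vector and wild type blocks are mostly blue (the median difference is -1.87).

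Stretches of the promoters of 2 of these genes are shown because both hold the full cAMP response element, TGACGTCA, the site of CREB and ATF factors, in capitals. They are from RefSeq on build GRCm38.p6, written along the strand of the gene, Btg2 at chr1:134079294-134079341 (minus strand) and Maff at chr15:79347471-79347518 (plus strand).
Btg2: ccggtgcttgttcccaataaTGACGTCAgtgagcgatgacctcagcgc
Maff: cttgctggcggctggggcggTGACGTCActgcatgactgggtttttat
Searched on both strands of windows reaching 250 bases before and 50 bases after a start site, the element was found in 1.79% of 32851 promoters, and in 3 of the 23 genes of the list that had a promoter in the table (Btg2, Dusp1 and Maff). Dusp1, a phosphatase that inactivates MAP kinases, did not pass the test, with a difference of -0.70.

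Of 20 genes of muscle stress, among them small GTPases and ankyrin-repeat proteins, 6 were lower and none higher (30% called, against 18.1% of all genes), with a median of -0.76. Besides Rrad, Sphk1 and Ankrd2 these were Gem, a relative of Rrad (-3.70, well above background in 1 of 4 MCU vector fibres and with another probe of the opposite sign), Ankrd1 (-2.23) and Timp1, an inhibitor of metalloproteinases that was at least 4.44-fold lower. None of the 20 genes passed against wild type fibres, where the median was 0.32.

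The metallothioneins Mt1 and Mt2, small proteins that bind zinc and copper, were lower with the MCU vector, as were some enzymes of redox defence. Mt2 was at 2.15, 4.88, 4.19 and 4.76 in MCU vector fibres, against 7.69, 7.49, 7.37 and 7.40 in control fibres. Mt1 was at 2.87, 4.63, 4.38 and 4.78 in MCU vector fibres, against 7.00, 6.93, 6.68 and 6.77 in control fibres. The differences were -3.50 ± 0.66 for Mt2 and -2.68 ± 0.55 for Mt1 (adjusted p = 8.4e-04 and 0.0017, the second -1.65 with all probes of Mt1 averaged), with no overlap of the groups and fibre 1 lowest among MCU vector fibres in both. Wild type fibres were lower still, at a mean of 1.27 for Mt2 and 2.55 for Mt1, but neither gene passed against them (adjusted p = 0.067 and 0.24). Hmox1, which breaks down haem, was at 0.43, 2.27, 0.65 and 2.35 in MCU vector fibres, against 4.66, 5.29, 4.70 and 4.86 in control fibres (difference -3.45, adjusted p = 5.2e-05). Txnrd1, the cytosolic thioredoxin reductase, was at 0.70 to 1.14 in MCU vector fibres and at 2.34 to 3.12 in control fibres, a difference of -1.83 ± 0.19 (adjusted p = 1.6e-06). Of the 28 antioxidant genes measured, 6 were lower and none higher (21.4%), with a median of -0.21, where 7.75% of all genes were called lower and 18.1% in either direction. The mitochondrial and cytosolic superoxide dismutases Sod2 and Sod1, catalase (Cat) and Gpx4 were not called. Wild type fibres likewise had 6 of the 28 lower and none higher than control vector fibres. Against wild type fibres 1 was lower and none higher with the MCU vector.

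The promoters of Mt1 and Mt2 are shown for their metal response elements, the sites of the zinc sensor MTF1, searched as TGCACNC or TGCGCNC on both strands and written in capitals. Mt1 is given at chr8:94179046-94179088 and Mt2 at chr8:94172375-94172594, both on the plus strand of GRCm38.p6.
Mt1: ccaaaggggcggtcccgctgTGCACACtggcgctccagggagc
Mt2: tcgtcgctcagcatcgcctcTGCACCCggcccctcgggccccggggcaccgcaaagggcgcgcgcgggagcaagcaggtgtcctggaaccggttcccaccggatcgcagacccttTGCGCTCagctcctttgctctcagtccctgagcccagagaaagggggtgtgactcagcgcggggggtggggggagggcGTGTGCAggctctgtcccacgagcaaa
The Mt2 stretch holds 3 matches and the Mt1 stretch 1. The short core was found in 25.7% of all promoters and 3 or more times in 1.97% of them, counting the whole window to 50 bases past the start. It was likewise found in 6 of the 24 antioxidant genes whose promoter was searched, Mt1 and Mt2 among them.

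Among the 30 pathway lists antigen presentation had the highest median, 0.66 against 0.06 for all genes, except with another background correction and with dim spots at the floor, where the fast sarcomere list was above it (0.253 against 0.229, and 0.260 against 0.258). Class I molecules carry peptides to the cell surface with beta-2-microglobulin (B2m), and resting muscle fibres show few of them. The size of this median depends on the dim members: it was 0.23 with another background correction, 0.26 with dim spots at the floor, 0.33 without a filter, 0.40 with all probes of a gene averaged and 0.42 without MCU vector fibre 1. Of 29 genes measured, 7 had a higher and 2 a lower level in MCU vector than in control vector fibres, beside 10.4% of all genes called higher and 7.75% called lower, and 10 were higher and none lower than in wild type fibres, where 0.326% of all genes were called higher. Without MCU vector fibre 1 the count higher than control was 3. H2-K1 was at 3.71, 3.30, 2.58 and 3.64 in MCU vector fibres, against 2.03, 1.67, 1.97 and 2.29 in control fibres. The difference was 1.32 ± 0.29 (adjusted p = 0.0027), and the difference from wild type, at 1.05 to 1.41, was 2.08 (adjusted p = 5.3e-04). B2m was at 3.38, 2.66, 2.83 and 3.34 in MCU vector fibres, against 2.14, 1.88, 2.23 and 2.30 in control fibres, a difference of 0.92 that did not pass (adjusted p = 0.055), although the groups did not overlap. Against wild type fibres B2m was higher by 2.21 (adjusted p = 9.5e-04). H2-D1, H2-Q7 and H2-T23 were higher than in wild type fibres by 2.41, 2.29 and 1.49, and of these H2-T23 alone passed against the control vector (0.70, adjusted p = 0.035), a call lost under 7 alternatives, median scaling among them. Among the MCU vector fibres, fibre 3 was lowest in H2-K1, H2-D1, H2-Q7 and H2-T23. Class I genes are close in sequence, so that a probe of one H2 gene may also read its relatives. Wild type fibres lay below control vector fibres in these genes, with a difference of -1.29 for B2m. Silenced fibres, on the slide of the control fibres, averaged 1.08 for B2m, against 2.14 in control fibres and 0.85 in wild type fibres.

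Cd74, the invariant chain of class II molecules, was at 1.04, 0.12, -1.73 and 0.27 in MCU vector fibres, against -1.87, -1.98, -1.99 and -2.29 in control fibres, with fibre 3 close to the controls. The difference was 1.96 ± 0.40 (adjusted p = 0.0017, and 1.06 with another background correction), and 1.78 against wild type (adjusted p = 0.045). Psme1, an activator of the proteasome, and Nlrc5, the transactivator of class I genes, went the other way, by -0.92 and -0.77. The peptide transporter subunits Tap1 and Tap2 and the proteasome subunits Psmb9 and Psmb10 did not pass.

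**Figure D4:**
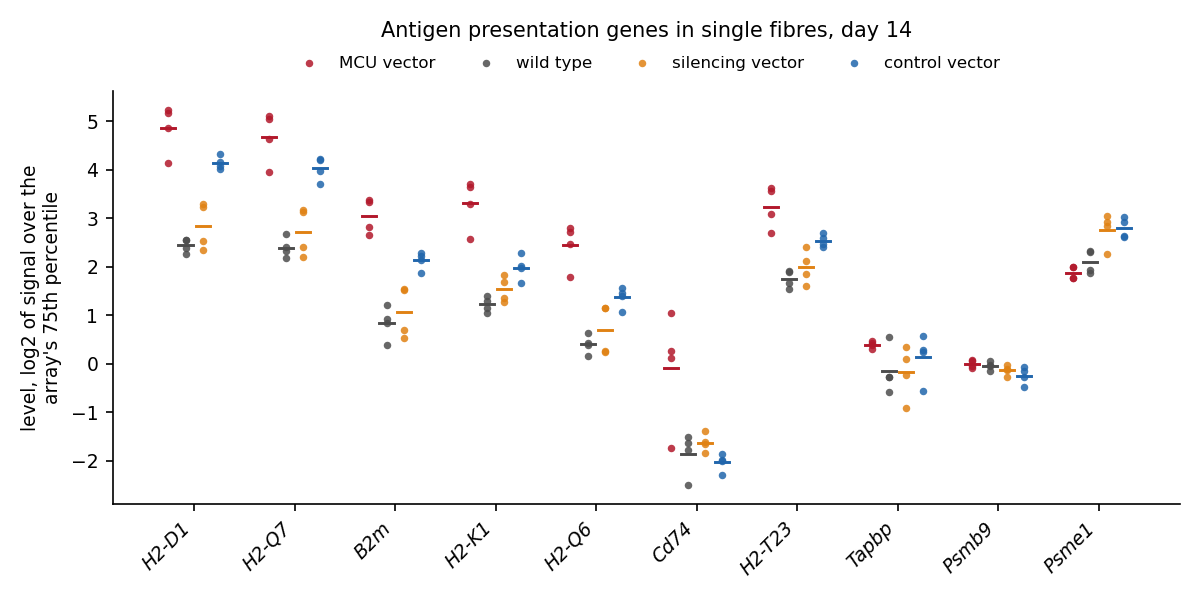
Level (log2 of signal over the array's 75th percentile) of 10 antigen presentation genes in 4 fibres each of MCU vector, wild type, silencing vector and control vector muscle at day 14, with group means as bars. The genes were picked for display after their values were seen and are ordered by the difference from wild type, and the class I genes on the left are highest with the MCU vector, while Psme1 on the right is lower than with the control vector.

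Stretches upstream of B2m (chr2:122147528-122147577, plus strand) and H2-T23 (chr17:36032796-36032845, minus strand), again from RefSeq on GRCm38.p6, hold the core of the interferon-stimulated response element, the site of STAT and IRF factors, in capitals.
B2m: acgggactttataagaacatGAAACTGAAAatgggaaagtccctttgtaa
H2-T23: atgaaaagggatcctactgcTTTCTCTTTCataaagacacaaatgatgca
The core, searched on both strands as GAAA, any 2 bases and again GAAA, was found in 3.44% of all promoters and in 4 of the 24 antigen presentation genes with a promoter in the table (B2m, Erap1, H2-T23 and Psme1).

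Of the interferon regulators named, Irf1 was at 1.38, 2.03, 1.80 and 2.05 in MCU vector fibres, against 5.36, 4.60, 5.44 and 6.10 in control fibres, and Irf8 was lower by -2.54 (adjusted p = 6.3e-04). Socs3, an inhibitor of cytokine signalling named here after its values were seen, was at 2.40, 3.97, 4.00 and 4.21 in MCU vector fibres, against 6.58, 6.10, 6.21 and 6.27 in control fibres, a difference of -2.65 (adjusted p = 0.018) that was no longer called without MCU vector fibre 1. Against wild type fibres Socs3 was higher by 3.38 (adjusted p = 0.045), which places the MCU vector fibres between the other 2 groups. Ifngr2, a chain of the interferon-gamma receptor, fell by 0.96 and Stat2 was at least 4.03-fold lower. Of 24 genes of nucleic acid sensing and its adaptors, 1 was higher and 7 lower (33.3% called, against 18.1% of all genes), with a median of -0.36 that was -0.21 with another background correction and -0.14 without a filter. Wild type fibres likewise had 1 of these genes higher and 7 lower than control vector fibres. Against wild type fibres 1 was higher and none lower with the MCU vector. Of 26 interferon and antiviral genes, 4 were higher and 3 lower (26.9% called), with a median of 0.02 that turned negative with median scaling (-0.06). Rsad2 (0.74) and Isg20 (0.75) were among the higher ones, with 0.27 for both under another background correction, and Isg20 lost its call under 4 alternatives. Of 16 interferon-inducible GTPases, only Irgm1 passed (-1.73). Among 12 chemokines and cytokines, Cxcl9 (0.88) and Ccl5 (0.54) were higher, calls that were both lost with median scaling and under 7 and 6 alternatives in all. Csf1 (-2.84, and -1.62 with another background correction) and Cxcl10 were lower, Cxcl10, well above background in 3 of 4 control fibres and in none with the MCU vector, by at least 2.81-fold.

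A smaller set of genes differed from both the control vector and wild type fibres in the same direction. Wild type fibres share the slide of the MCU vector fibres, but wild type and control vector fibres both lie in array columns 3 and 4, so that array column and vector cannot be told apart here. Nup133, a scaffold protein of the nuclear pore, was at 2.77, 2.63, 2.71 and 2.83 in MCU vector fibres, against 1.29, 1.09, 1.46 and 1.09 in control fibres. The difference was 1.5 ± 0.21, or 2.83-fold (adjusted p = 3.8e-05), and 1.47 against wild type (adjusted p = 5.3e-04). Myo1e, a membrane-linked myosin, rose by 1.22 against control and 1.29 against wild type, Palld, an actin cross-linker, by 0.90 and 0.76, and Mrtfb, the coactivator of serum response factor, by 1.36 and 1.18. Sgcd, the delta subunit of the sarcoglycan complex of the muscle membrane, rose by 0.73 and 0.91, although another of its 3 probes had the opposite sign and the call was lost with all of them averaged (0.22). Serpinb1c rose by 2.87 and 4.06 and was well above background in 1 of 4 control fibres. Wild type and control vector fibres differed by at most 0.18 in either direction for Nup133, Myo1e, Palld, Mrtfb and Sgcd. These genes were chosen because they passed the same way against both groups, so that this closeness follows in part from the choice. Serpinb1c and H2-K1, which also passed against both, stood farther from wild type than from control vector fibres. Silenced fibres, which lie in the same array columns as the MCU vector fibres, differed from control fibres by 0.43 in Nup133, 0.12 in Mrtfb, 0.11 in Myo1e, 0.10 in Palld and -0.06 in Sgcd.

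Lower than in both other groups were Fkbp7, a peptidyl-prolyl isomerase of the endoplasmic reticulum (-1.88 against control and -1.31 against wild type), and Dnajb1, a cochaperone of HSP70 (-1.89 and -2.86). Dnajb1 was at 2.43, 2.34, 1.90 and 2.50 in MCU vector fibres, against 3.47, 4.24, 4.61 and 4.41 in control fibres and 4.49 to 6.89 in wild type fibres. Lmo2, a transcriptional adaptor, was lower by -1.70 and -1.57, and Sord, sorbitol dehydrogenase, by -0.56 and -0.60. Slc15a5, a transporter of the peptide family, was at least 4.02-fold lower than in control fibres. Of 25 heat shock genes in all, 1 was higher and 3 lower than with the control vector (16% called, against 18.1% of all genes), Dnajb1 among those lower.

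Nuclear genes of mitochondrial energy metabolism had mostly negative differences, of which a minority passed the test. For complex I of the respiratory chain, 34 of 36 genes had a negative difference, with a median of -0.24, but only 7 were called lower and none higher (19.4%). Of all genes 7.75% were called lower and 18.1% in either direction. For complexes II to V, 40 of 41 genes had a negative difference, with a median of -0.32 and 10 called lower (24.4%). For the tricarboxylic acid cycle and pyruvate dehydrogenase, 8 of 26 were called lower (30.8%) and none higher, with a median of -0.41. Ndufs5 of complex I was at 3.23, 3.32, 3.39 and 3.42 in MCU vector fibres, against 3.89, 4.34, 4.15 and 4.12 in control fibres (difference -0.79 ± 0.12, adjusted p = 7.2e-05), and Ndufs4 (-0.75), Ndufa9 (-0.75) and Ndufb3 (-0.56) were lower as well. Sdhd, an anchor of succinate dehydrogenase, was lower by -0.91, Cox7b of complex IV by -0.56 and Atp5k of the ATP synthase by -0.64. Idh3g, a subunit of the isocitrate dehydrogenase that calcium activates, was at 4.57, 4.55, 4.75 and 4.75 in MCU vector fibres, against 5.19, 5.62, 5.74 and 5.77 in control fibres (difference -0.93, adjusted p = 8.8e-04), and citrate synthase (Cs) and the pyruvate carrier Mpc2 were lower by -0.64 and -0.67. The medians against wild type fibres of the same slide were -0.24, -0.23 and -0.20 for the 3 lists, but no gene of them was called there. Without MCU vector fibre 2 or control fibre 3 complex I had 4 lower calls, complexes II to V had 5 and 6 (6 also without control fibre 4), and the tricarboxylic acid cycle had 5 without control fibre 3. With median scaling the lower calls of the 3 lists were 11, 14 and 10, and with another background correction 11, 18 and 10. With quantile normalization the 3 medians were smaller in size, at -0.14, -0.23 and -0.32.

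Of 28 genes of fatty acid oxidation 1 was called lower, Ppard (-1.53), with a list median of -0.32, and 5 were called lower with array weights or a fit of the 8 arrays alone and 10 with Myh4 minus Myh1 as covariate. Of 25 glycolytic genes 3 were lower and none higher (12% called), with a median of -0.07. Hk2, the hexokinase of muscle, was at 2.79 to 3.32 in MCU vector fibres and at 4.34 to 5.01 in control fibres, a difference of -1.68 (adjusted p = 1.7e-04). Pfkfb3, which makes the activator of phosphofructokinase, and the glucose transporter Slc2a1 were lower by -2.25 and -2.12. None of the 3 passed against wild type fibres, and the difference of wild type from control fibres was -1.63 in Hk2. Of 25 genes of mitochondrial biogenesis 4 were lower (16%), among them Sirt1 (-1.67), and of 29 genes of protein import into mitochondria 4 were lower (13.8%), with a median of -0.17. Beside these lists, 7.75% of all genes were called lower and 18.1% in either direction.

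**Figure D5:**
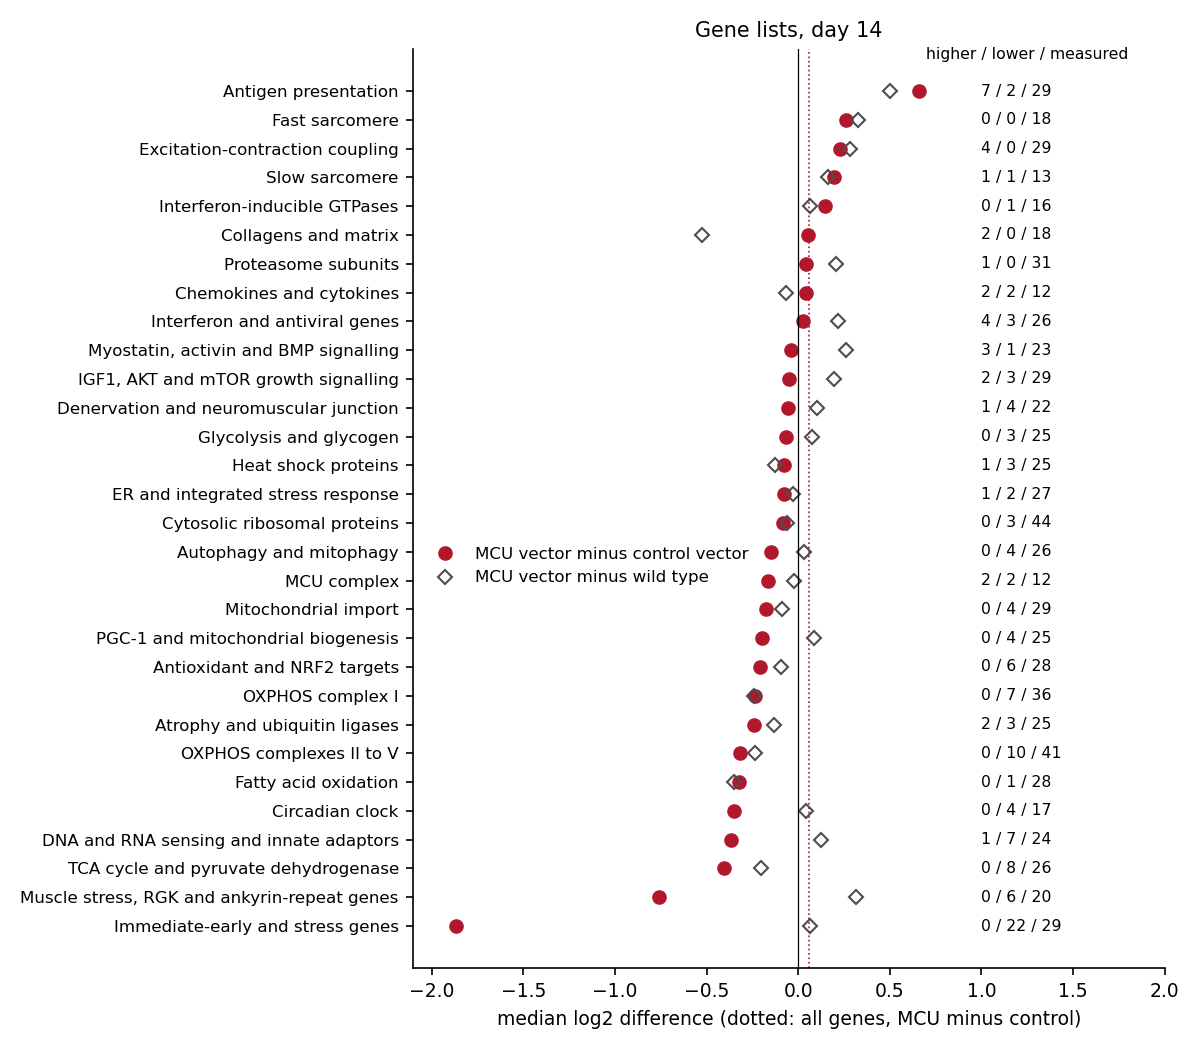
Median log2 difference over the measured genes of each of 30 lists, for MCU vector minus control vector (filled circles) and MCU vector minus wild type (open diamonds), with the dotted line at the median of all genes for the first. The numbers on the right count genes called higher and lower with the MCU vector than with the control vector and genes measured, and the immediate-early list stands farthest from 0, at -1.87.

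None of 18 genes of the fast sarcomere passed, with a median of 0.26. Among 29 genes of excitation-contraction coupling 4 were higher and none lower (13.8% called, median 0.23), where 10.4% of all genes were called higher. Among the 4 was Srl, the calcium-binding sarcalumenin of the sarcoplasmic reticulum. Its levels were 6.13, 6.25, 6.35 and 6.36 in MCU vector fibres, against 5.68, 5.83, 5.89 and 5.91 in control fibres (limma, difference 0.45, adjusted p = 0.015, and 0.78 against wild type, adjusted p = 0.0020). Camk2d, a calcium-dependent kinase, rose by 0.83. All 4 calls were lost when arrays were scaled by their median, and 2 remained in number without fibre 4 of either group.

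In the lists of growth signalling, atrophy and autophagy 15.4% to 20% of genes were called, near the 18.1% of all genes. Of 29 genes of IGF1, AKT and mTOR signalling 2 were higher and 3 lower, Eif4e among the lower ones by -0.80 and Irs1 among the higher by 0.78, a call lost under 8 alternatives that include median scaling and each MCU vector fibre left out. The list's median was -0.05. Of 23 genes of myostatin, activin and BMP signalling 3 were higher, among them Gdf11 (1.91) and the activin-binding Fstl3 (0.77), and 1, Id2, was lower. Of 25 genes of atrophy and ubiquitin ligation 2 were higher and 3 lower. Fbxo40, a muscle ubiquitin ligase that targets IRS1, was at 4.78 to 4.82 in MCU vector fibres and at 3.91 to 4.31 in control fibres (difference 0.65, a call lost with median scaling), and the lower ones were Mt1, Mt2 and Fbxo30 (-1.27). Of 26 autophagy genes 4 were lower and none higher, where 7.75% of all genes were called lower. These include Gabarapl2 (-1.23), Gabarap (-0.51, a call lost with all its probes averaged) and the kinase Ulk1 (-0.71). Of 31 proteasome subunits 1 (3.23%) and of 44 cytosolic ribosomal proteins 3 (6.82%) passed. Of 27 genes of the endoplasmic reticulum stress response 3 passed (11.1%), among them the secreted Gdf15, which rose by 0.70. Of 22 genes of denervation 1 was higher and 4 lower (22.7%), among them Myod1, which fell by 1.10. Of 18 collagen and matrix genes 2 laminin genes were higher (11.1%), Lama2 by 0.88 and Lamc1 by 0.86.

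Of 17 clock genes 4 were lower and none higher (23.5% called, against 18.1% of all genes), with a median of -0.35. Bhlhe40 was at 1.36, 2.34, 1.96 and 2.24 in MCU vector fibres, against 4.35, 4.23, 4.45 and 4.30 in control fibres (difference -2.36 ± 0.25, adjusted p = 2.2e-06). Nr1d1, the repressor REV-ERB alpha, was lower by -1.24 (adjusted p = 2.6e-05) and Tef by -0.39, a call lost under 13 alternatives. Without MCU vector fibre 1 or 4, or without control fibre 3, 2 clock genes were called lower. The difference of wild type from control fibres was -2.83 in Bhlhe40 and -1.34 in Nr1d1. The hour at which muscles were taken is not given in the labels.

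The identity of the fibres was checked on marker genes. All 10 fast fibre markers were measured on all 8 arrays and none passed, with Pvalb at a mean of 10.7 in MCU vector fibres and 10.2 in control fibres, and the summed signal of the 10 was 4025 to 5391 times the array's 75th percentile in MCU vector fibres, against 3689 to 4141 in control fibres. Not passing does not show equal levels. Myh1 varied widely, at 1.63 to 5.31 in MCU vector fibres and -1.09 to 4.77 in control fibres. Actn3 was at 7.63 to 7.90 in MCU vector fibres, against 6.71 to 6.99 in control fibres, without overlap. Its difference was 0.94 ± 1.17 (limma, adjusted p = 0.62), with 1 silenced fibre at -2.28 in the shared spread. The 6 slow fibre markers summed to 7.66 to 10.2 in MCU vector fibres and 6.05 to 7.86 in control fibres. Markers of other cells were measured only in part. Of 17 macrophage markers 10 were measured, 6 of them on all 4 arrays of either group, and 7 were not kept, Mrc1 and Tyrobp among them. Their sum of 304 to 358 in MCU vector fibres and 278 to 309 in control fibres came almost wholly from Itgam, with a mean level of 8.28 in MCU vector fibres and 8.04 in control fibres. Fcer1g, well above background in 2 of 4 MCU vector fibres and no control fibre, was higher by at least 1.74-fold and C1qb was lower by -1.22. The 10 lymphocyte markers measured summed to 11.0 to 13.4 in MCU vector fibres and 9.50 to 11.4 in control fibres. Of these Cd4 was higher by 0.65 (adjusted p = 0.0014) and Cd5 by 0.66 (adjusted p = 0.022), without overlap of the groups, and the B cell genes Ms4a1 and Cd79a were not kept. The 7 fibroblast markers measured summed to 4.29 to 5.62 in MCU vector fibres and 3.77 to 4.45 in control fibres, with Dcn and Col1a1 below background on all 8 arrays, while Pi16 was higher by 0.92. The 4 adipocyte markers summed to 1.54 to 1.85 in MCU vector fibres and 1.13 to 1.22 in control fibres, and 3 of them were called higher, Retn by 0.51 and Lep and Adipoq by at least 1.75-fold and 1.79-fold. In the other lists Esam of endothelium was higher by at least 1.62-fold, Tagln of mural cells was higher by 0.39 and Ngfr of Schwann cells was lower by at least 2.22-fold. None of these called markers passed against wild type fibres. The 5 mural markers summed to 11.8 to 12.9 in MCU vector fibres and 9.67 to 11.4 in control fibres, without overlap, while the sums of endothelial, Schwann, satellite cell and red cell markers overlapped between the groups. The part of attached cells in the class I and class II levels was not tested.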

How the data were processed

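Each fibre's RNA was amplified over 18 cycles and labelled with random primers, per the labels' protocols, which keeps no strand information. Spot intensity in the scanner files was written by Agilent's Feature Extraction software, release 10.7.3.1, per the file headers, where the processed signal is already background-subtracted and not scaled between arrays. The submitters' own table holds intensity on a linear scale, deposited with unstated steps. It was log2-transformed as an alternative, and each column matched its own array's scanner values best (r at least 0.998, with at most 0.981 for any other array). Column medians of that table lay between 22.5 and 23.2, and how it was scaled is not given in the sources used here.

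Control spots and outlier spots were left out and spots of a probe averaged. Log2 signal minus the array's 75th percentile was analysed for the 33163 probes that at least 3 arrays of some group showed well above background, with the brightest probe standing for a gene. Of 55681 probes, 26425 were named by accession, 3988 by symbol, 826 by synonym, and 24442 kept the file's name. limma 3.58.1 in R 4.3.3 was fitted to all 30 arrays with 8 group means (22 residual degrees of freedom) and Benjamini-Hochberg adjustment over 23341 genes. The fit was tested on simulated data.

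Genes were named by a rule: Mcu, the 12 largest rises and falls measured on all 8 arrays, the 6 largest bounds each way, 10 genes each way that passed against both control vector and wild type, and up to 4 members of each of 30 pathway and 11 marker lists. Further members of the lists were added as examples after their values were seen, and a few genes that the rule would name are not reported here. The members and lists were chosen with earlier results of these data known. Replicate numbers did not pair the fibres: deviations of same-numbered MCU vector and control fibres correlated at -0.044 to -0.0077, over 0.1 in 0 of 4 pairs. Alternatives changed the scaling, background correction, source of values, filter, choice of probe, fitted arrays, weights, covariates, replicate block and single fibres.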

Additional observations from a re-analysis of the deposited data

Results flagged for a closer look

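Of the named genes 105 were examined here, each in 2 groups of 4 fibres. Among them 12 single fibres lay far from the other 3 of their group by Dixon's test, where chance gives about 5% of the 210 groups. In MCU vector fibres these were Rgcc in fibre 4 (3.85, the others 3.55 to 3.57), Ddit4 in fibre 4 (-0.33, the others 0.27 to 0.34), Tmem243 in fibre 1 (-1.58), Gabarapl2 in fibre 1 (1.07), Irf8 in fibre 3 (0.82), Stat2 in fibre 2 (-3.85), Nr4a1 in fibre 3 (5.08) and Socs3 in fibre 1 (2.40, the others 3.97 to 4.21). In control vector fibres they were Rrad in fibre 1 (6.54, the others 4.22 to 4.38), Csrnp1 in fibre 1 (3.53), Tgfbr3 in fibre 3 (-3.02) and Lama2 in fibre 4 (0.25).

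The difference of MCU vector from control vector at day 14 minus that at day 7 passed the limma interaction test for 625 of 23341 genes (2.68%), and for 29 of the 105 named genes examined. Most of the 105 were named for their difference at day 14, which is part of this test. The larger share among them therefore follows in part from the choice. The 4 groups of this test lie on 4 slides, so slide and day cannot be told apart, and the MCU vector group of day 7 held only 3 fibres. Mcu differed by 3.82 at day 14 and 0.72 at day 7, a change of 3.11 (adjusted p = 0.0018). The change was positive for Rgcc (5.33), Rasd1 (3.55), Gdf11 (2.79), Tmem14c (2.30), Tmem243 (2.06), Nup133 (1.62), Mrtfb (1.61), Camk2d (1.42), Myo1e (1.39) and Palld (0.96). In Nup133, Mrtfb, Myo1e and Palld the day 7 differences lay between -0.25 and -0.06. In 6 antigen presentation genes the difference was smaller or more negative at day 14 than at day 7. H2-K1 differed by 1.32 at day 14 and 3.00 at day 7 (change -1.68), H2-D1 by 0.71 and 2.64 (change -1.94), H2-Q7 changed by -1.92, H2-T23 by -1.88, Psme1 by -1.44 and Cd74 by -3.61, from differences of 1.96 at day 14 and 5.56 at day 7. Irgm1 changed by -5.72, with -1.73 at day 14 and 3.98 at day 7, Stat2 by -4.44, Irf8 by -4.22 and Irf1 by -3.89. Thbs4 changed by -5.28, Grb14 by -4.49, Slc15a5 by -4.01, Aqp4 by -3.78, Zfp36l1 by -3.21, Dnajb1 by -3.16, Ppp1r1c by -2.16 and Fkbp7 by -1.83.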

How the results depend on the processing

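Mcu stayed called under every alternative run, at 3.66 to 3.99. The count of genes that differed between MCU vector and control vector fibres was 3540 to 4995, except with array weights (6620), and 3009 to 3728 with 1 fibre left out. Counts that moved by over 1.5 times were those against wild type (98), at 152 with normexp, 383 with array weights, 567 with Myh4 minus Myh1 as covariate, 37 with the detected share as covariate and 48 to 72 without 1 MCU vector fibre; that of wild type against control (3743), at 1723 with the detected share; and that of the day difference (625), at 1166 with normexp, 1883 with array weights and 1038 with the Myh covariate. The cause was not tested. With the replicate number as a block, 4205 genes differed between the vectors, 86 were higher and 21 lower than in wild type, 3690 differed between wild type and control and 549 between days, Mcu differed by 3.82 (adjusted p = 1.8e-06), and Vdac1 and Tef lost their calls. Of the named genes 105 were recomputed under the alternatives. Of the 102 of them that were called, 80 kept the call under every alternative and none reversed. With normexp 31 of these called genes had differences smaller by over 1.5 times. The other genes named above, such as Ankrd1, Cxcl10, Nlrc5 and the called markers of other cells, were not recomputed one by one. The slide could not be made a block, since it holds no fibre of the other vector, and signal near background limits what can be said of dim genes.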
